A study of Mus musculus with 4 samples.

Results

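The dioxygenases that use alpha-ketoglutarate as a cosubstrate, other than the TET enzymes, were followed on 4 single-colour Agilent arrays of mouse fibroblasts undergoing reprogramming. The 34 genes were chosen by name, through the gene name printed for each probe in the scanner files, among 34816 genes or transcripts on the array. They fell into 15 histone demethylases and jumonji proteins, 14 prolyl, lysyl and related hydroxylases and 5 nucleic acid demethylases. The first class includes Jarid2, which belongs to the jumonji family but lacks demethylase activity. Together they carried 56 probes, of which 50 were well above background on all 4 arrays and 3 on none. In all, 33 of the 34 genes could be measured on every array. The exception was Kdm4d, a histone demethylase whose single probe did not stand clear of background on the arrays.

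Enzymes of this family split molecular oxygen at an iron centre, turn alpha-ketoglutarate into succinate and carbon dioxide, and place a hydroxyl group on their target. On a methylated lysine or base the hydroxylated methyl group then falls off, which is how jumonji demethylases act on histones and AlkB proteins and Fto on nucleic acids. On proline, lysine or asparagine the hydroxyl group stays, as in collagen and in the oxygen-regulated factor HIF. The study examined AKT, a kinase of growth factor signalling, in the making of pluripotent cells from fibroblasts, together with alpha-ketoglutarate and the TET enzymes, so other users of the same cosubstrate are of interest beside it.

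All 4 groups were embryonic fibroblasts of male embryos (E13.5), pooled from several embryos, which carried an EGFP transgene driven by the Oct4 promoter. All had been infected with retroviruses for Oct4, Sox2 and Klf4 (OSK), and those named OSKA also with one for AKT-MER, a membrane-targeted AKT joined to a modified estrogen receptor that is switched on by 4-hydroxytamoxifen (4OHT). From 3 days postinfection (dpi) the cells received 4OHT or its vehicle ethanol, and RNA was taken at 8 dpi from the whole culture, including cells that were not being reprogrammed. Each group (OSK − 4OHT, OSK + 4OHT, OSKA − 4OHT and OSKA + 4OHT) was 1 array, so no difference has a replicate check and no test was run. The free-text label of the OSKA + 4OHT array says that AKT-MER was not active, which contradicts its title, and the title was used.

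A level is the log2 intensity of a probe minus the 75th percentile of its array, and a gene is given by its brightest probe unless another is named. Differences are log2 differences between 2 arrays, and the error stated by the scanner software for a difference of a member had a median of 0.204 (log2), which covers the measurement and not the variation between cultures. The receptor part of AKT-MER was visible through the Esr1 probe, which did not stand clear of background in OSK cells. On the OSKA arrays it was at 3.11 without 4OHT, at least 219-fold higher, and at 3.32 with 4OHT, at least 233-fold higher. All 10 fibroblast markers were well above background on every array. All 5 haematopoietic markers were so too, with a summed intensity (in units of the 75th percentile of each array) of 131 in OSK − 4OHT, 179 in OSK + 4OHT, 177 in OSKA − 4OHT and 156 in OSKA + 4OHT. Of the other markers, 2 of 5 endothelial (all but Cdh5, Tie1 and Emcn), 4 of 5 epithelial (all but Cldn6) and 3 of 5 pluripotency genes (all but Zfp42 and Esrrb) were well above background. In the same order of arrays the summed intensity was 6.67, 11.0, 8.16 and 9.58 for the endothelial, 3.59, 2.84, 2.04 and 2.89 for the epithelial and 2.98, 4.12, 4.25 and 2.85 for the pluripotency markers. With 4OHT in OSKA cells, the comparison that called Egln3 and P4ha3, the epithelial sum was thus higher and the pluripotency sum lower. The markers within each list did not all go the same way. Krt18 was at 1.81-fold and Krt8 at 1.47-fold, but Cdh1 at 0.911-fold and Epcam at 0.731-fold. Tdgf1 was at 0.602-fold and Nanog at 0.880-fold, but Dppa5a at 1.44-fold, and another Nanog probe gave a log2 difference of 0.11. For AKT-MER without 4OHT the epithelial sum was lower, with Krt8 at −1.23, Cdh1 at −1.05 and Epcam at −0.10, whereas Krt18 was at 0.27. The part that these other cells had in the results below was not tested, and in whole cultures fewer cells of a type cannot be told apart from less RNA per cell.

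With 4OHT in OSKA cells, the comparison that switches AKT on, Egln3 was the only member at least 2-fold apart and P4ha3 the only one at least 1.5-fold lower. Egln3 encodes a prolyl hydroxylase that marks HIF for destruction, and its level was 2.22-fold higher. P4ha3 encodes a catalytic subunit of collagen prolyl hydroxylase, and its level was 0.530-fold. The 31 other measured members, among them all 14 histone demethylases and jumonji proteins and all 5 nucleic acid demethylases, lay within 1.5-fold. Members at least 1.5-fold higher therefore numbered 1 of 33 where 5.06% of the 20300 genes measured were, and members at least 1.5-fold lower 1 of 33 where 4.63% of genes were. At 2-fold in either direction 1 member stood against 2.91% of genes. The median difference over the members was 0.06, beside −0.03 over all genes.

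**Figure D1:**
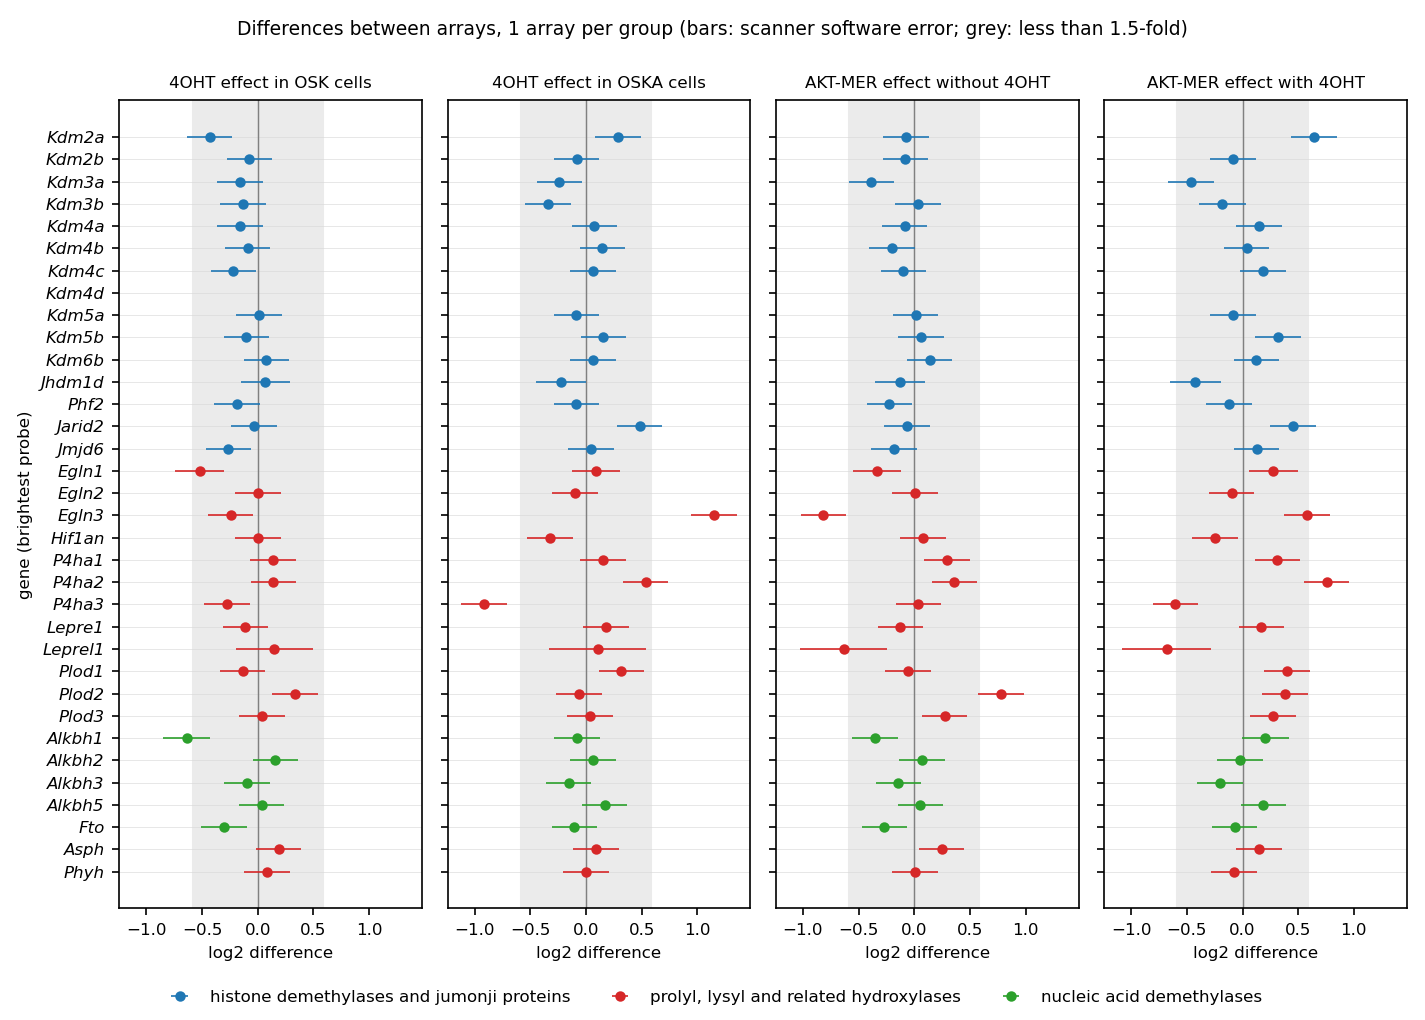
Log2 difference of the brightest probe of each member (rows) in each of the 4 comparisons (panels), with bars for the error given by the scanner software and a grey band for differences under 1.5-fold, each from 1 array per group. In the 4OHT effect in OSKA cells, Egln3 at 1.15 and P4ha3 at −0.91 lie outside the band and the other members inside it; Kdm4d has no point because it was not measured.

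The other comparisons showed similarly few members. With 4OHT in OSK cells, which lack AKT-MER, none was at least 1.5-fold higher (4.33% of 19861 genes were) and 1 was at least 1.5-fold lower (1.63% of genes), the nucleic acid demethylase gene Alkbh1. No member reached 2-fold there, beside 0.886% of genes. For OSKA against OSK cells without 4OHT, 1 member was at least 1.5-fold higher, the lysyl hydroxylase gene Plod2 (5.66% of 20183 genes), and 2 were lower, Egln3 and Leprel1 (3.99%). With 4OHT in both, 2 members were higher, P4ha2 and Kdm2a (5.46% of 19846 genes), and 2 were lower, P4ha3 and Leprel1 (5.1%). Of these, P4ha2 was past 1.5-fold under every alternative scaling, background correction and filter run. Kdm2a fell short of it with spike-in scaling (0.52), normexp (0.54) and the mean of its probes (0.16), and its other probe gave −0.33. The lower calls were lost with normexp background correction (−0.49 for P4ha3 and −0.24 for Leprel1), and that of P4ha3 also with the mean of its probes (−0.52). The normexp correction adds an offset of 50 to every intensity, which by itself shrinks the differences of dim probes. At 2-fold no member stood out in either of these AKT-MER comparisons, beside 2.02% of genes without and 3.04% with 4OHT. The median difference over members was −0.09 for 4OHT in OSK cells, −0.06 for AKT-MER without 4OHT and 0.13 for AKT-MER with 4OHT, and over all genes −0.00, −0.02 and −0.05. Each array enters 2 of the 4 comparisons, so these are not independent of each other.

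The members varied over the arrays about as much as other genes did. In 25 of 33 members (75.8%) the highest and the lowest of the 4 arrays lay less than 1.5-fold apart, as they did in 75.3% of the 19540 genes measured on all arrays. The median distance between the highest and lowest array was 0.32 over members and 0.36 over all genes. It was 0.29 over the 14 measured histone demethylases and jumonji proteins, 0.30 over the 5 nucleic acid demethylases and 0.42 over the 14 hydroxylases. The OSKA + 4OHT array gave the highest value of 12 members (36.4%, against 27.3% of genes) and the lowest of 11 (33.3%, against 37.5% of genes). With spike-in scaling the OSK − 4OHT array was the highest for 30 of 33 members and the OSKA + 4OHT array for 2, P4ha1 and P4ha2, and the orders of arrays given below are those at the 75th percentile scaling.

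**Figure D2:**
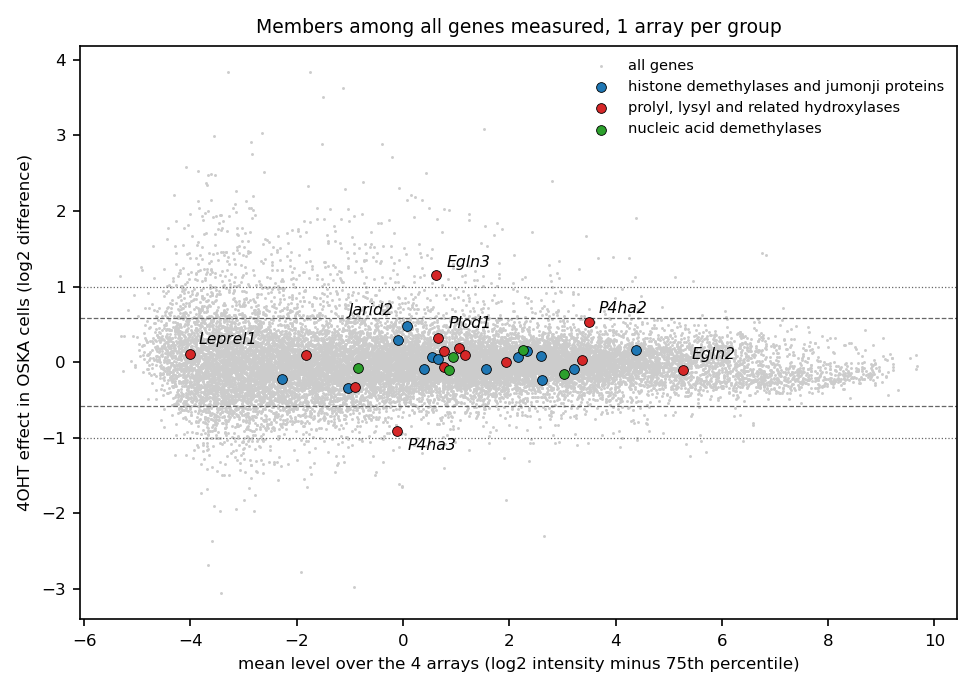
Log2 difference for 4OHT in OSKA cells against the mean level over the 4 arrays (log2), for all genes measured on both arrays (grey) and for the members coloured by class, each from 1 array per group, with dashed lines at 1.5-fold and dotted lines at 2-fold. Among the members, Egln3 lies above the upper dotted line and P4ha3 between the lower lines.

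The HIF hydroxylases were taken first. These are Egln1, Egln2 and Egln3, which hydroxylate prolines of HIF alpha subunits so that the ubiquitin ligase subunit Vhl can bind, and Hif1an, which hydroxylates an asparagine and keeps HIF from its coactivators. Egln3 was at 0.81 in OSK − 4OHT, 0.57 in OSK + 4OHT, −0.00 in OSKA − 4OHT and 1.15 in OSKA + 4OHT. The OSKA − 4OHT array was thus the lowest and the OSKA + 4OHT array the highest of the 4. With spike-in scaling the OSKA − 4OHT array was again the lowest, but the OSKA + 4OHT array lay at −0.11 relative to the OSK − 4OHT array and was not the highest. The 4OHT difference in OSKA cells was 1.15, and 306 of 20300 genes (1.51%) had a larger one. In OSK cells the 4OHT difference was −0.24, close to the software error. The OSKA − 4OHT array was 0.568-fold of the OSK − 4OHT array, a difference of −0.82, and the OSKA + 4OHT array exceeded the OSK + 4OHT array by 0.58.

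Egln3 had a second probe, which lies 299 bases from the first on chromosome 12 (chr12:55281252-55281311 and chr12:55280953-55281012, minus strand, NCBI37). It read −0.17, −0.39, −0.91 and 0.24 in the same order of arrays, and its 4OHT difference in OSKA cells was 1.15 as well. The order of the arrays was the same for both probes.

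Egln1 was at −1.54, −2.07, −1.88 and −1.79 in the order OSK − 4OHT, OSK + 4OHT, OSKA − 4OHT and OSKA + 4OHT. Its 4OHT difference was −0.52 in OSK cells and 0.09 in OSKA cells, so the OSK − 4OHT array stood above the other three. Egln2 kept 5.29, 5.29, 5.30 and 5.20 in that order, a distance of 0.10 from highest to lowest that is under the software error. Hif1an read −0.86, −0.86, −0.78 and −1.10, with OSKA + 4OHT lowest at a 4OHT difference of −0.32. At this scaling Egln3 was the only one of the 4 HIF hydroxylases with a difference of 1.5-fold or more. With spike-in scaling Egln1 passed it too, at −0.84 for 4OHT in OSK cells and −0.80 for AKT-MER without 4OHT.

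Of the 6 other HIF pathway genes looked up, none was at least 1.5-fold apart with 4OHT in OSKA cells. Vhl, which recognises hydroxylated HIF, was 0.44 higher there and −0.03 apart in OSK cells. Hif1a, the alpha subunit that Egln enzymes act on, was at 1.76, 1.14, 1.65 and 1.86 by its brightest probe, which put the OSK + 4OHT array lowest at a 4OHT difference of −0.62. The second Hif1a probe gave 0.81 for the same comparison, so no direction is given for it. Epas1, which encodes another HIF alpha subunit, was at 4.67, 4.50, 4.14 and 3.84, and differed by −0.66 in the AKT-MER comparison with 4OHT, where its other probes gave −0.58 and −0.19.

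The collagen prolyl hydroxylases showed both directions. P4ha1, P4ha2 and P4ha3 are alternative catalytic subunits that pair with the P4hb subunit and hydroxylate prolines which the collagen triple helix needs to be stable at body temperature, whereas Lepre1 and Leprel1 modify other prolines of collagen. P4ha2 was at 3.14 in OSK − 4OHT, 3.29 in OSK + 4OHT, 3.51 in OSKA − 4OHT and 4.04 in OSKA + 4OHT. Its OSKA + 4OHT array was thus highest, at 1.45-fold of OSKA − 4OHT (0.54) and 1.69-fold of OSK + 4OHT (0.76). P4ha3 was at 0.16, −0.11, 0.20 and −0.72 in the same order. Its 4OHT difference was −0.91 in OSKA cells, with 241 of 20300 genes (1.19%) lower still, and −0.28 in OSK cells. The OSKA + 4OHT array was the lowest for P4ha3 and the highest for P4ha2.

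The second P4ha3 probe lies 4311 bases from the first (chr7:107463120-107463179 and chr7:107467431-107467490, plus strand, NCBI37). It read −0.47, −0.71, −0.45 and −1.14, with a 4OHT difference of −0.69 in OSKA cells and −0.24 in OSK cells. Both P4ha3 probes thus placed the OSKA + 4OHT array lowest. P4ha1 was at 0.56, 0.70, 0.86 and 1.01, with no 2 arrays 1.5-fold apart, and its second, much dimmer probe differed by 0.75 between OSKA and OSK without 4OHT.

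Lepre1 was at 1.10, 0.99, 0.98 and 1.16, within the software error of each other, and its dimmer second probe differed by −0.51 for 4OHT in OSK cells, 0.34 for 4OHT in OSKA cells and 0.66 for AKT-MER with 4OHT. Leprel1 was at −3.75, −3.60, −4.39 and −4.28, near the lowest levels that counted as well above background (−4.90 to −4.54 over the arrays), with a software error of up to 0.44. The difference of OSKA from OSK cells was −0.63 without and −0.68 with 4OHT. With another background correction (normexp followed by quantile normalization) these became −0.20 and −0.24. That correction adds 50 to every intensity, and the Leprel1 intensities used above were only 19.3 to 34.3. The smaller differences thus follow at least in part from this setting.

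**Figure D3:**
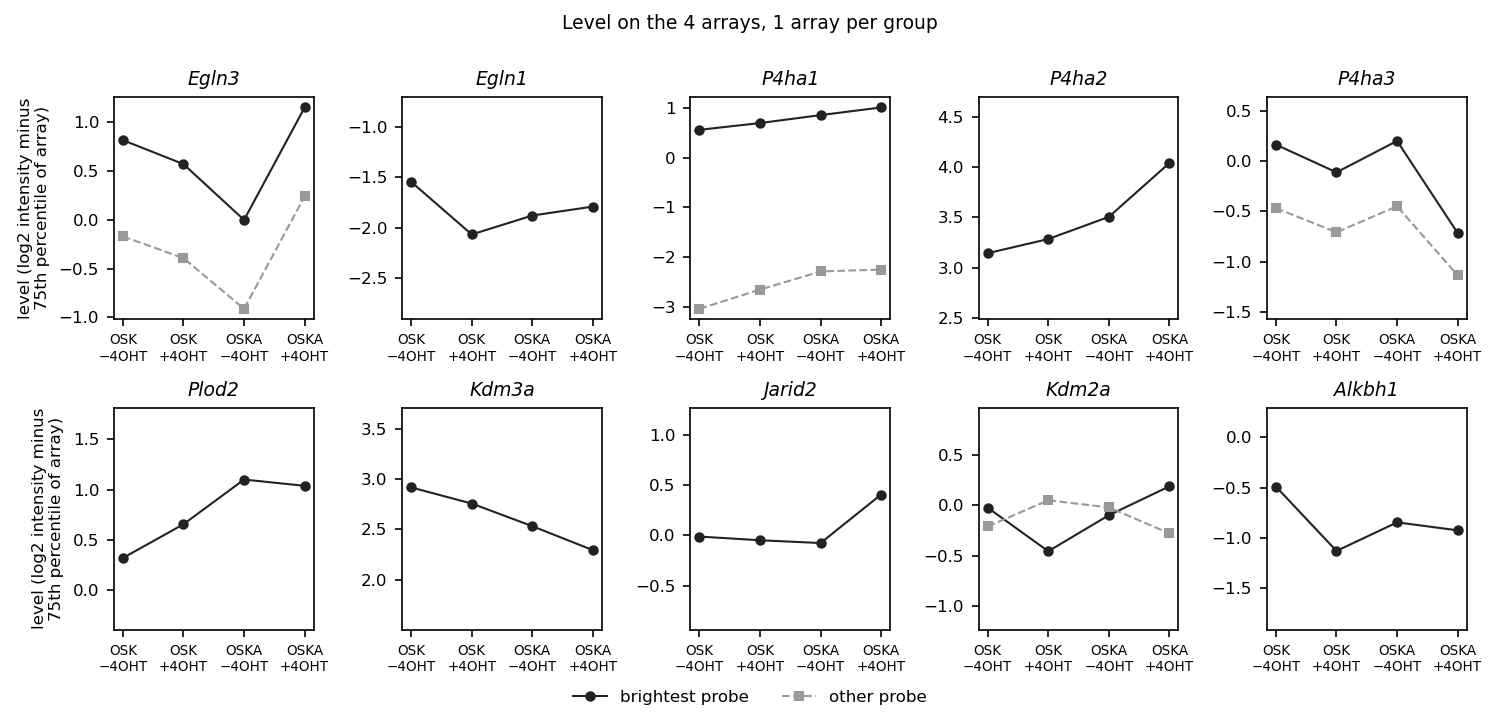
Level (log2 intensity minus the 75th percentile of the array) of 10 members on the 4 arrays, 1 array per group, with black circles for the brightest probe and grey squares for a second measured probe; lines join the arrays of one probe, and each panel has its own vertical range. At this scaling both Egln3 probes are highest and both P4ha3 probes lowest in OSKA + 4OHT, while the Kdm2a probes run in opposite directions.

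Sequence in front of the genes was set beside these levels because Egln3, P4ha1 and P4ha2 are known as targets of HIF, whose DNA-binding core is ACGTG or GCGTG. The 250 bases before the start of Egln3, P4ha1, P4ha2 and P4ha3 were read from RefSeq (GRCm38.p6) and are printed 5′ to 3′ on the strand of the gene, with matches to either core on either strand in capitals. P4ha3 is shown as the subunit that differed the other way.
Egln3, chr12:54203875-54204124, minus strand: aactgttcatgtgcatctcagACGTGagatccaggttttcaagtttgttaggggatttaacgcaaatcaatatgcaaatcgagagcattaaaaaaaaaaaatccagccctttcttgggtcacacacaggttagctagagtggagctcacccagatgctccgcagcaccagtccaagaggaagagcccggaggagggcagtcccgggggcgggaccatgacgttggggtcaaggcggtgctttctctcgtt
P4ha1, chr10:59323046-59323295, plus strand: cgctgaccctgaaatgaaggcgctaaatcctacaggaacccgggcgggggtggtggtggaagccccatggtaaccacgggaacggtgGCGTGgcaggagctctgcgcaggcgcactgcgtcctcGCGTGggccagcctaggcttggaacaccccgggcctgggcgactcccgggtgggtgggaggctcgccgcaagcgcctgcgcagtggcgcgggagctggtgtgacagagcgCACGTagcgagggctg
P4ha2, chr11:54100674-54100923, plus strand: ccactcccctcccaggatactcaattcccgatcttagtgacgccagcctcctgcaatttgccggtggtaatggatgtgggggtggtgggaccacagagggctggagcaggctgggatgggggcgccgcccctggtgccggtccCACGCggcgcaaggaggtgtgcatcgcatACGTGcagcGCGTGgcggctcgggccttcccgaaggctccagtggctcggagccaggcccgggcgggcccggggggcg
P4ha3, chr7:100285270-100285519, plus strand: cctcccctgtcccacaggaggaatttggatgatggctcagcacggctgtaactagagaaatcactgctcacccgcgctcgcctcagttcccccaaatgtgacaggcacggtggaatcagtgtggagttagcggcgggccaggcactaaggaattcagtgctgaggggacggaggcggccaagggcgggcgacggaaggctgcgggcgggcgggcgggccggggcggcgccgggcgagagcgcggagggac

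Egln3 had 1 match, 229 bases before the start. P4ha1 had 3, at 163, 126 and 16 bases, and P4ha2 had 3, of which the nearer ones lay at 78 and 69 bases. P4ha3 had none in this window. At least 1 match occurred in 38.6% of 32851 windows of this length and at least 3 in 6.58%. Over the members, 26 of 34 had a window in the table and 16 of them a match, and 22 of their 35 windows (62.9%) held at least 1. A match is a string of letters and not evidence of binding, and no binding was measured here. With 4OHT in OSKA cells P4ha1, with 3 matches, differed by 0.15 and Egln3, with 1 match, by 1.15. Whether matches go with differences over the members was not tested.

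The lysyl hydroxylases prepare collagen for cross-linking. Plod2, which acts on the ends of the collagen chain, was at 0.32 in OSK − 4OHT, 0.66 in OSK + 4OHT, 1.10 in OSKA − 4OHT and 1.04 in OSKA + 4OHT. Both OSKA arrays were above both OSK arrays. The OSKA − 4OHT array was 1.72-fold of the OSK − 4OHT array (0.78), and 4OHT in OSKA cells left a difference of −0.06. With spike-in scaling the difference of 0.78 became 0.31, short of 1.5-fold. Plod1 was at 0.64, 0.50, 0.58 and 0.90, with OSKA + 4OHT highest at a 4OHT difference of 0.32, and its second measured probe gave 0.28. Plod3 was at 3.21, 3.25, 3.49 and 3.52, so that both OSKA arrays were 0.27 above the OSK array of the same treatment. With spike-in scaling the difference without 4OHT turned to −0.19, and that with 4OHT was 0.15.

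Of 7 partners of collagen hydroxylation, none was at least 1.5-fold apart with 4OHT in OSKA cells, and their median difference there was 0.21. P4hb, the partner subunit of P4ha1, P4ha2 and P4ha3, was 0.24 higher. Serpinh1, a chaperone that binds the hydroxylated triple helix, was at 5.25, 5.31, 5.56 and 6.05, the same order of arrays as P4ha2, with a difference of 0.49 for 4OHT in OSKA cells and 0.74 for AKT-MER with 4OHT. Crtap, which forms a complex with the Lepre1 protein, was −0.06 apart. The collagen genes among the fibroblast markers differed by 0.10 (Col1a1), 0.06 (Col1a2) and 0.49 (Col3a1) for 4OHT in OSKA cells, and by 0.40, 0.18 and 0.82 for AKT-MER with 4OHT. The median over all 10 fibroblast markers was −0.06 for 4OHT in OSKA cells, with 1 of 10 at least 1.5-fold lower and none higher. For AKT-MER with 4OHT it was 0.08, with 5 of 10 above 0. There 1 marker was at least 1.5-fold higher (Col3a1) and 1 lower (Pdgfrb, −0.62).

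The remaining hydroxylases were Asph and Phyh. Asph, which hydroxylates aspartate and asparagine in domains that resemble epidermal growth factor, was at 0.96, 1.15, 1.21 and 1.30 by its brightest probe. Another Asph probe, drawn from a different transcript record, was lowest in OSK − 4OHT, and differed by 0.65 for 4OHT in OSK cells and by 0.74 for AKT-MER without 4OHT. The third measured Asph probe gave −0.24 and −0.04 for these comparisons, so the probes of Asph disagreed there. Phyh, which hydroxylates branched fatty acids in peroxisomes, kept within 0.08 over the 4 arrays. Of 10 further hydroxylase genes looked up, 8 were measured, and 1 was at least 1.5-fold lower with 4OHT in OSKA cells. This was Asphd2, a relative of Asph, which was at −0.82, −0.64, −0.27 and −0.86, so that the OSKA − 4OHT array stood above the other three.

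The histone demethylases differed little. They remove methyl groups from lysines of histones, Kdm2a, Kdm2b and the Kdm4 genes among others from lysines linked to transcribed or silent chromatin, Kdm5a and Kdm5b from the mark of active promoters, and Kdm6b from the mark set by Polycomb. With 4OHT in OSKA cells the 14 measured histone demethylases and jumonji proteins ranged from −0.34 (Kdm3b) to 0.48 (Jarid2), with a median of 0.05. With 4OHT in OSK cells 3 of 14 were above 0, beside 49.4% of all genes, with a median of −0.12. For AKT-MER without 4OHT 4 of 14 were above 0, beside 47.0% of genes, with a median of −0.08. For 4OHT in OSKA cells 8 of 14 were above 0, beside 45.2% of genes, and for AKT-MER with 4OHT 8 of 14, beside 42.9% of genes, with a median of 0.08. The OSK − 4OHT array gave the highest value of 7 of the 14, beside 31.6% of genes, and the lowest of 1, beside 27.2% of genes. Under a scaling to the spike-in probes, the median of all genes moved by −0.32 for 4OHT in OSK cells, 0.02 for 4OHT in OSKA cells, −0.47 for AKT-MER without 4OHT and −0.12 for AKT-MER with 4OHT, so values in the comparisons with the OSK − 4OHT array are relative to the 75th percentile and are not absolute.

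Kdm3a, which acts on a mark of silent chromatin, was at 2.92 in OSK − 4OHT, 2.76 in OSK + 4OHT, 2.53 in OSKA − 4OHT and 2.29 in OSKA + 4OHT, so that both OSKA arrays lay below both OSK arrays. None of the 4 comparisons reached 1.5-fold at this scaling, and the largest was −0.46 for AKT-MER with 4OHT. With spike-in scaling the Kdm3a difference for AKT-MER without 4OHT was −0.85, past 1.5-fold. The highest and lowest arrays were 1.54-fold apart. Jarid2, a jumonji protein that lacks demethylase activity and accompanies Polycomb, was at −0.01, −0.05, −0.08 and 0.41. The OSKA + 4OHT array was thus apart from the other three, which lay between −0.08 and −0.01, at 1.40-fold of OSKA − 4OHT, although with spike-in scaling it lay at −0.02 relative to OSK − 4OHT. Kdm5b was at 4.34, 4.24, 4.40 and 4.56, with OSKA + 4OHT highest and 0.32 above OSK + 4OHT. Kdm2b, Kdm4a, Kdm4b, Kdm4c, Kdm5a and Kdm6b spanned between 0.09 and 0.22 from their lowest to their highest array. Jmjd6, Phf2, Kdm3b and Jhdm1d spanned between 0.26 and 0.42, and the second measured probe of Kdm3b differed by −0.60 and that of Jhdm1d by 0.56 for AKT-MER without 4OHT.

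The probes of Kdm2a disagreed. The brightest was at −0.02, −0.46, −0.10 and 0.19 in the order OSK − 4OHT, OSK + 4OHT, OSKA − 4OHT and OSKA + 4OHT, which gave −0.43 for 4OHT in OSK cells, 0.29 for 4OHT in OSKA cells and 0.64 for AKT-MER with 4OHT. The other was at −0.21, 0.05, −0.02 and −0.28, which gave 0.26, −0.26 and −0.33 for the same comparisons. Every one of these differences had the opposite sign, so Kdm2a is given no direction. Both probes are assigned to the same transcript record and lie 1967 bases apart. Bases 31 to 60 of each are printed as deposited, in lower case with nothing marked, because their composition differs.
Kdm2a, brightest probe, chr19:4316170-4316229: gatttggttttcttttttgtttttgttttt
Kdm2a, other probe, chr19:4318137-4318196: atccccacctgcctctctaagccaggcttt

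The first stretch held 23 T in 30 bases and the second 8, and over the whole probe 25% and 55% of bases were G or C. The part of this composition in the disagreement was not tested. Both probes lie on chromosome 19 (minus strand, NCBI37).

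Kdm5b also had probes that disagreed. A dim probe that lies 24930 bases from the brightest one and is assigned to another transcript record was at −3.04, −3.46, −2.65 and −1.46. It was 2.27-fold higher with 4OHT in OSKA cells and, with 4OHT, 3.99-fold of its OSK value in OSKA cells. The brightest Kdm5b probe gave 0.16 and 0.32 for the same comparisons, and the other probes 0.11 and −0.48 for 4OHT in OSKA cells. Over the 13 members with at least 2 measured probes, all probes of a gene had the same sign in 8 genes for 4OHT in OSK cells, 8 for 4OHT in OSKA cells, 6 for AKT-MER without 4OHT and 10 for AKT-MER with 4OHT. The median distance between the highest and the lowest probe of a gene was 0.20 for 4OHT in OSKA cells, against 0.00 for Egln3 and 0.23 for P4ha3.

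**Figure D4:**
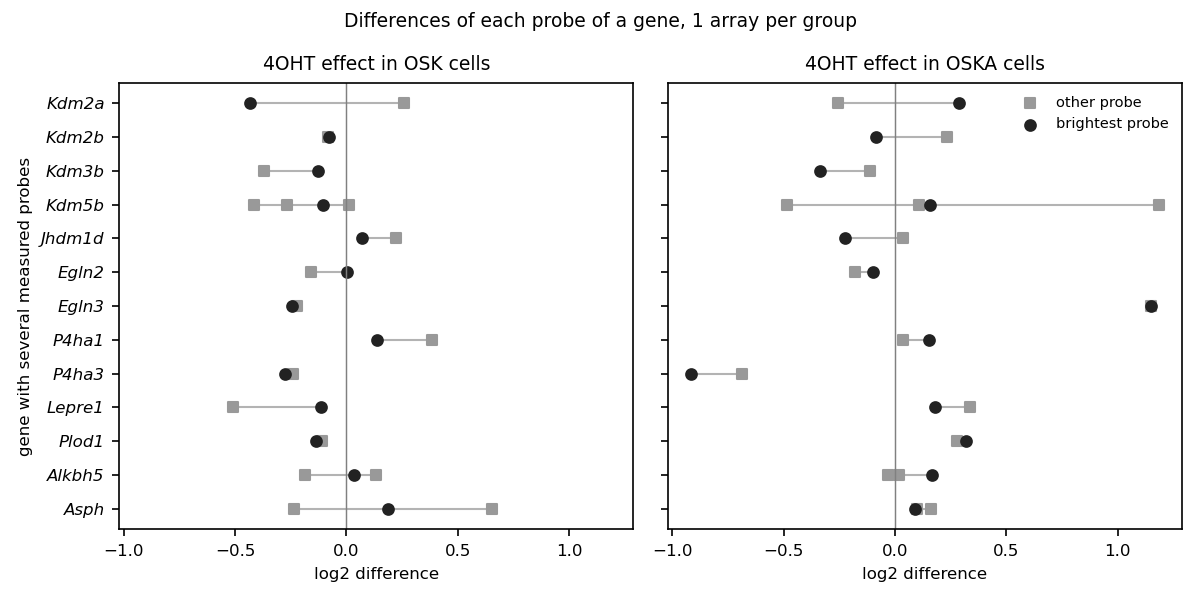
Log2 difference of each measured probe of the 13 members with several measured probes, for 4OHT in OSK cells (left) and in OSKA cells (right), 1 array per group, with black circles for the brightest probe, grey squares for the others and a line from the lowest to the highest. In OSKA cells the Egln3 probes coincide at 1.15, the P4ha3 probes lie at −0.91 and −0.69, the Kdm2a probes lie on either side of 0, and Kdm5b spans from −0.48 to 1.18.

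Of 13 other jumonji genes looked up, 12 were measured and none was at least 1.5-fold apart in any comparison by its brightest probe. In this list 1 of 12 was above 0 for 4OHT in OSK cells, 9 for 4OHT in OSKA cells, none for AKT-MER without 4OHT and 6 for AKT-MER with 4OHT, with medians of −0.11, 0.01, −0.11 and −0.01. Of all genes, 49.4%, 45.2%, 47.0% and 42.9% were above 0 in these comparisons. Some other probes went another way. That of Jmjd1c gave 0.57, −0.80, 0.31 and −1.06 in the same order of comparisons, and one of Phf8 gave 0.67 for 4OHT in OSK cells and 0.88 for AKT-MER without 4OHT. Both demethylases that use FAD in place of alpha-ketoglutarate, Kdm1a and Kdm1b, were likewise below 0 for 4OHT in OSK cells (−0.12 and −0.26) and above 0 in OSKA cells (0.19 and 0.06).

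The nucleic acid demethylases include Alkbh2 and Alkbh3, which repair alkylated bases, Alkbh5 and Fto, which take methyl groups off adenosine in RNA, and Alkbh1, for which several nucleic acid substrates are known. Alkbh1 was at −0.49 in OSK − 4OHT, −1.13 in OSK + 4OHT, −0.84 in OSKA − 4OHT and −0.92 in OSKA + 4OHT. The OSK + 4OHT array was thus lowest, at 0.642-fold of OSK − 4OHT (−0.64), with 238 of 19861 genes lower still, and the 4OHT difference in OSKA cells was −0.08. Under the normexp background correction the difference in OSK cells was −0.51, short of 1.5-fold. Fto was at 1.11, 0.81, 0.84 and 0.74, with OSK − 4OHT above the other three.

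Alkbh2 was at 0.85, 1.01, 0.92 and 0.99, and Alkbh5 at 2.17, 2.21, 2.23 and 2.39. Alkbh3 was at 3.16, 3.06, 3.02 and 2.86, lowest in OSKA + 4OHT. None of these 3 genes spanned more than 0.30 over the arrays. The 4 other AlkB genes looked up were all measured and ranged from −0.14 (Alkbh7) to 0.21 (Alkbh4) with 4OHT in OSKA cells. Of 8 genes that write or read adenosine methylation in RNA, none was at least 1.5-fold apart with 4OHT in OSKA cells, with a median difference of −0.01.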

How the data were processed

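Cy3-labelled RNA (from 100 ng of total RNA per array) was hybridised to 4 arrays of 1 slide, so array position and group cannot be told apart. The deposited scanner files hold an intensity for each of 62976 spots (59305 not controls, 55681 probes), which the authors had obtained with Agilent Feature Extraction 10.7.3.1, corrected for background and trend and not normalized between arrays. The deposited series matrix repeats this intensity (0.995 to 1.005 of the scanner value). The files also give the error of each intensity from an error model, used here for the error of a difference.

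The log2 intensity was reduced by the 75th percentile of each array, after 104 to 155 spots per array marked as uneven or as outliers were left out. Repeat spots were averaged, and the probe with the largest average level stood for its gene. A difference needed a signal well above background on the pair of arrays. With such a signal on 1 array only, the dim side was taken at its own level or at the lowest level above background, whichever was larger, and the result is written "at least N-fold". Between 52.4% and 55.4% of spots were well above background per array. Among the 399 probes spotted 10 times, the SD of a difference was 0.089. Probe names were updated by RefSeq accession for 49.4% of probes (GRCm38.p6, names and promoter windows only), and probe coordinates are those of the files (NCBI37).

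No test was possible with 1 array per group, and a 1.5-fold difference is a description. Levels on all 4 arrays are given for members at least 1.5-fold apart in a comparison, for HIF and collagen hydroxylases and for nucleic acid demethylases, and Kdm3a, Jarid2, Kdm5b, Plod1, Plod3, Asph and the context genes named otherwise were added after their values were seen. The members and the other gene lists were chosen with earlier results of these data known. The alternatives were quantile, median and spike-in scaling, normexp background correction (offset 50), other filters on dim probes, the mean of all probes, the series matrix and a 2-fold threshold. The scripts were tested on simulated data in which the changed probes lay well above background. Earlier forms of that simulation, with dimmer changed probes, missed the set limits, so recovery near background was not shown. Python 3.11.15 with numpy 2.4.6 and pandas 2.3.3, and limma 3.58.1 in R 4.3.3, were used.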

Additional observations from a re-analysis of the deposited data

Results flagged for a closer look

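Egln3 and Kdm2a had 4OHT differences of opposite sign in OSK and OSKA cells, each larger than the software error of the difference. Egln3 differed by −0.24 in OSK cells and by 1.15 in OSKA cells, which are 1.395 apart on the log2 scale, and both of its probes gave this pattern. Kdm2a differed by −0.43 in OSK cells and by 0.29 in OSKA cells, which are 0.72 apart, and its second probe gave the opposite signs. With 1 array per group neither difference between the cell kinds was tested.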

How the results depend on the processing

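No member difference called at 1.5-fold changed sign under any alternative. Quantile and median scaling, the series matrix and the filter on all 4 arrays moved no count by over 1.5 times and no median beyond the spread set for it. Spike-in scaling moved the values in the 2 comparisons with the OSK − 4OHT array. For 4OHT in OSK cells, members at least 1.5-fold lower numbered 5 in place of 1, and the medians were −0.41 over all members, −0.43 over histone demethylases and jumonji proteins, −0.42 over nucleic acid demethylases and −0.30 over hydroxylases. For AKT-MER without 4OHT, 12 members were lower in place of 2 and 0 higher in place of 1, and the same medians were −0.53, −0.55, −0.61 and −0.45. The hydroxylase median was 0.02 in both comparisons before, so its sign depends on the scaling, and so do the signs of P4ha1 (−0.18 and −0.17), P4ha2 (−0.18 and −0.11), Plod3 (−0.28 and −0.19) and Asph (−0.13 and −0.22). In all, 13 of 33 members changed sign for 4OHT in OSK cells and 14 for AKT-MER without 4OHT, against 1 in each of the other comparisons. The member no longer higher for AKT-MER without 4OHT was Plod2 (0.31). With 4OHT in both, 1 member was higher in place of 2.

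With normexp and quantile normalization, 0 members were lower for 4OHT in OSK cells, 1 was lower for AKT-MER without 4OHT, and 1 was higher and 0 lower for AKT-MER with 4OHT. With the mean of all probes, 1 was lower for AKT-MER with 4OHT, and the Kdm2a difference there was 0.16. Without the filter on dim probes, 2 were higher for 4OHT in OSKA cells, the second being Kdm4d, which was not above background. At 2-fold the counts were 0 lower for 4OHT in OSK cells, 0 lower for 4OHT in OSKA cells, 0 higher and 0 lower for AKT-MER without 4OHT, and 0 higher and 0 lower for AKT-MER with 4OHT. The Egln3 difference for 4OHT in OSKA cells was 1.17 with spike-in scaling and 1.03 with normexp, and that of P4ha3 −0.89 and −0.73. Apart from what the settings themselves remove, the cause of these changes was not tested. No paired analysis was possible because each group was 1 array. Signal over background limits Leprel1, Jhdm1d and Kdm4d most.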
